A study of Homo sapiens with 10 samples.

Results

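Iron storage, uptake and sensing were followed through 9 listed genes of the 61533 genes counted in RNA-seq libraries of 2 bladder cancer cell lines: FTH1, FTL, NCOA4, TFRC, SLC11A2, STEAP3, ACO1, IREB2 and FLVCR1. The genes were listed by name, and each was matched to its Ensembl identifier. All 9 passed the filter on low counts. The lines were T24, an established human bladder cancer line, and T24R2, a cisplatin-resistant line derived from T24 by serial desensitization to the drug, each with 5 libraries from day 3 of culture and neither given any further agent in the labels. The methods describe maintenance of T24R2 in cisplatin, but the labels name one drug-free medium for both lines, so the line and ongoing exposure to cisplatin cannot be told apart, and the sources used here do not say whether T24R2 is a single clone. Total counts were 9257843 to 10247941 in T24 and 9591379 to 10840954 in T24R2. The comparison asks how far the resistant line differs from its parent in the transcripts that take up, store and sense iron. The labels do not say that the 5 libraries of a line came from separate cultures, so p-values measure only the spread between these libraries.

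Cells import iron bound to transferrin through the transferrin receptor, reduce it in the endosome and pass it into the cytosol, where the surplus is stored in ferritin, a shell of heavy and light chains. Ferritin is opened again when the cargo receptor NCOA4 carries it to the lysosome. The iron regulatory proteins, encoded by ACO1 and IREB2, sense the cytosolic pool: when iron is short they bind hairpins called iron-responsive elements, which blocks translation of the ferritin transcripts and protects the transferrin receptor transcript from decay. Stored and labile iron matter in cancer cells because free ferrous iron drives lipid peroxidation and ferroptosis.

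The hairpins are shown because they are the elements through which the sensors are known to act on the ferritin and transferrin receptor transcripts. Each line below is DNA of the transcribed strand in GRCh38, 5′ to 3′, and capitals mark the bulged C and the CAGTGN loop. The pattern searched was the letters CNNNNNCAGTGN followed by 5 bases, in which the 5 bases before the loop had to pair with the 5 bases after it, G with T allowed, on the transcribed strand only. It was found in 19 of 18763 5′ UTRs (0.101%) and in 121 of 18780 3′ UTRs (0.644%) of the annotation. FTH1 and FTL held 1 match each in the 5′ UTR, and TFRC held 4 in the 3′ UTR.
FTH1 5′ UTR, chr11:61967574-61967602, minus strand: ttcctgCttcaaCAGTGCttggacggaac
FTL 5′ UTR, chr19:48965335-48965363, plus strand: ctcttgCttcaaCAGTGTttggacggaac
TFRC 3′ UTR, chr3:196050979-196051007, minus strand: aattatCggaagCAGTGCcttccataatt
TFRC 3′ UTR, chr3:196050575-196050603, minus strand: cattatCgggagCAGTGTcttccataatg
TFRC 3′ UTR, chr3:196050510-196050538, minus strand: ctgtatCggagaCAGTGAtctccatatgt
TFRC 3′ UTR, chr3:196050463-196050491, minus strand: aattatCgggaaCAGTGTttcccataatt
The pattern was not matched in SLC11A2, which says only that these letters with a paired stem are not in the UTRs searched. Forms of its transcript are known to carry such an element. A match is a description of the sequence, and no binding was measured here.

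The ferritin transcripts were higher in T24R2 and the transferrin receptor transcript was lower, in every library. Of the 9 genes, 5 rose (FTH1, FTL, STEAP3, IREB2 and FLVCR1) and 2 fell (TFRC and SLC11A2) in the quasi-likelihood test of edgeR, called where the adjusted p was under 0.05 and the log2 fold change was beyond 0.5 in either direction. NCOA4 and ACO1 passed the adjusted p but not the fold change. Calls were common between these lines: 51.4% of the 16181 tested genes were called, 24.9% as higher and 26.5% as lower. The 5 libraries of each line did not overlap for any of the 9 genes, which also held for 61.2% of all tested genes. The median log2 fold change was 0.89 over the 9 genes and 0.01 over all tested genes. Since these are bulk libraries, fewer cells expressing a gene and less of its RNA per cell cannot be told apart.

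**Figure D1:**
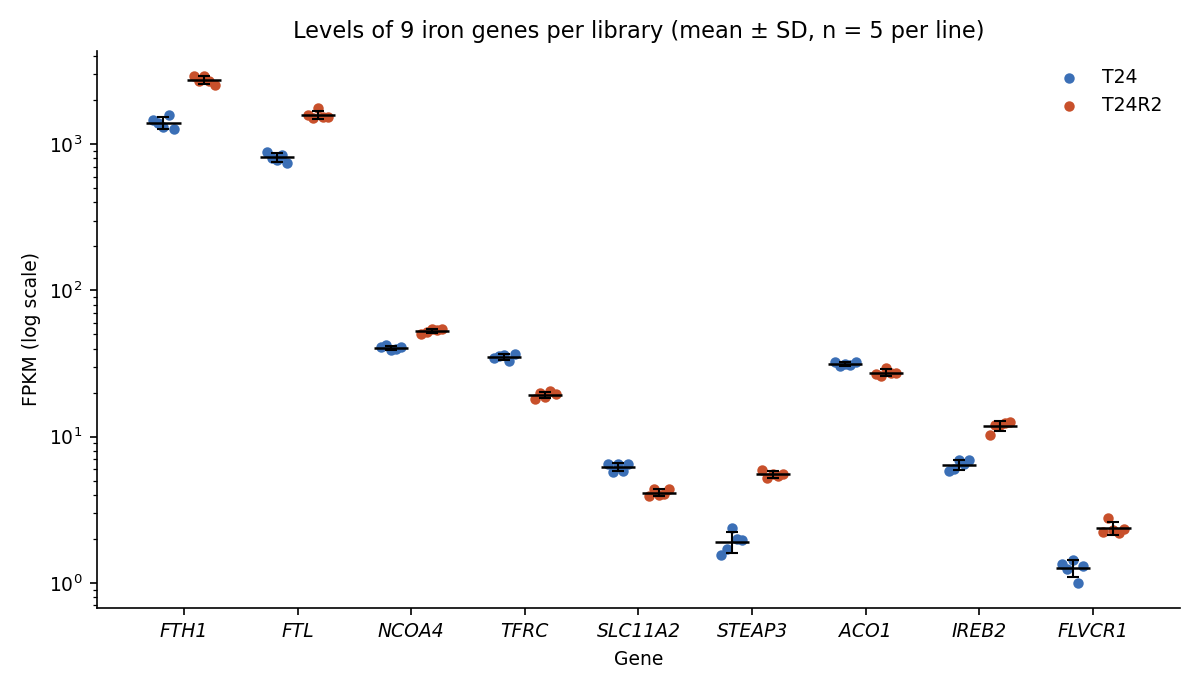
Level of each of the 9 genes in each library, as FPKM (CPM divided by the exon length of the gene in kilobases, log axis), for T24 (blue) and T24R2 (red), with the mean and SD of 5 libraries in black. FTH1 and FTL stand above the other listed genes in both lines, and the points of the lines do not overlap for any of the 9 genes.

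The ferritin heavy chain gene FTH1 (ENSG00000167996.16, chr11:61959718-61967634, minus strand) encodes the chain that oxidizes ferrous iron for storage. Its CPM, counts scaled to a common library size, was 2928, 2801, 2607, 3162 and 2549 in the T24 libraries and 5847, 5423, 5827, 5418 and 5072 in the T24R2 libraries. All T24R2 libraries lay above all T24 libraries. The mean was 2809 ± 249 CPM (SD, n = 5) in T24 and 5517 ± 325 in T24R2, a log2 fold change of 0.97 (SE 0.05, adjusted p = 3.84e-21 from the quasi-likelihood test of edgeR, with the Benjamini-Hochberg method over all tested genes). As counted, FTH1 alone took 0.265% of all counts in T24 and 0.582% in T24R2, and by FPKM it moved from rank 17 to rank 6 among all genes. With the counts of the overlapping gene BEST1, described below, taken off, 4428 to 6268 counts a library would remain in T24. In T24R2, 7065 to 13669 would remain, so the share and the rank would be lower in both lines.

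The ferritin light chain gene FTL (ENSG00000087086.15, chr19:48965309-48966879, plus strand) encodes the chain that helps nucleate the iron core. It measured 769, 704, 680, 731 and 646 CPM in T24 and 1378, 1304, 1531, 1338 and 1342 CPM in T24R2. Again no T24R2 library fell within the T24 range. The mean rose from 706 ± 47.1 to 1379 ± 89.3 CPM (SD, n = 5), with a log2 fold change of 0.97 (SE 0.05, edgeR adjusted p = 2.48e-21). Its rank by FPKM went from 42 to 14.

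The heavy and light chain transcripts stood in almost the same proportion in both lines as counted, though not with the counts of the gene opposite FTH1, BEST1, taken off. Per length, FTH1 was 1.73 ± 0.0899 times FTL in T24 (SD, n = 5) and 1.74 ± 0.0904 times in T24R2. The log2 ratio differed by 0.01 between the lines, with a 95% interval of -0.10 to 0.12 (exact two-sided permutation test, p = 0.833, n = 5 per line, adjusted p = 0.833 over 4 ratios), so a change of the ratio larger than that interval was not seen and a smaller one was not detectable with these libraries. The ratio ranged from 1.65 to 1.88 in T24 and from 1.64 to 1.84 in T24R2, and the lines overlapped.

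The FTH1 values carry a limit of counting. BEST1, a gene for a chloride channel of the retinal pigment epithelium, shares 1267 exon bases with FTH1 on the opposite strand, 63.2% of the exon bases of FTH1. The fragments were counted with a strand option, and the library kit is not described in a way that settles whether it marks strand, so reads of FTH1 and BEST1 cannot be told apart with certainty. BEST1 had 18384 to 23129 counts in T24 and 44517 to 52667 in T24R2. It stood at a count ratio to FTH1 of 0.794 ± 0.0138 in T24 and 0.838 ± 0.0306 in T24R2 (SD, n = 5), and its own log2 fold change was 1.05 (SE 0.05). The log2 fold change of FTH1 was 1.01 with all BEST1 counts added and 0.63 with all of them taken off, and FTH1 was called in both cases. The log2 ratio of FTH1 to FTL differed between the lines by 0.05 with BEST1 added (95% interval -0.05 to 0.14, exact permutation test, p = 0.341, n = 5 per line). With BEST1 taken off the difference was -0.36 (95% interval -0.72 to -0.00052, exact permutation test, p = 0.0635, n = 5 per line), so the equal proportion was not kept in that setting. Fragments were counted by strand, so a fragment counted for BEST1 was not also counted for FTH1. Taking BEST1 off is therefore an extreme setting and not a recount of the shared reads. The level of the ratio moved more than its difference. Per full exon length, FTH1 was 0.323 to 0.401 times FTL in T24 and 0.225 to 0.396 times in T24R2 with BEST1 taken off. With BEST1 added it was 2.98 to 3.36 and 3.06 to 3.33 times. These values divide by all 2004 exon bases of FTH1, the 1267 shared bases included. They therefore do not show which chain was the more abundant once BEST1 counts are taken off. The settings for the ratios were chosen after the data were seen.

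**Figure D2:**
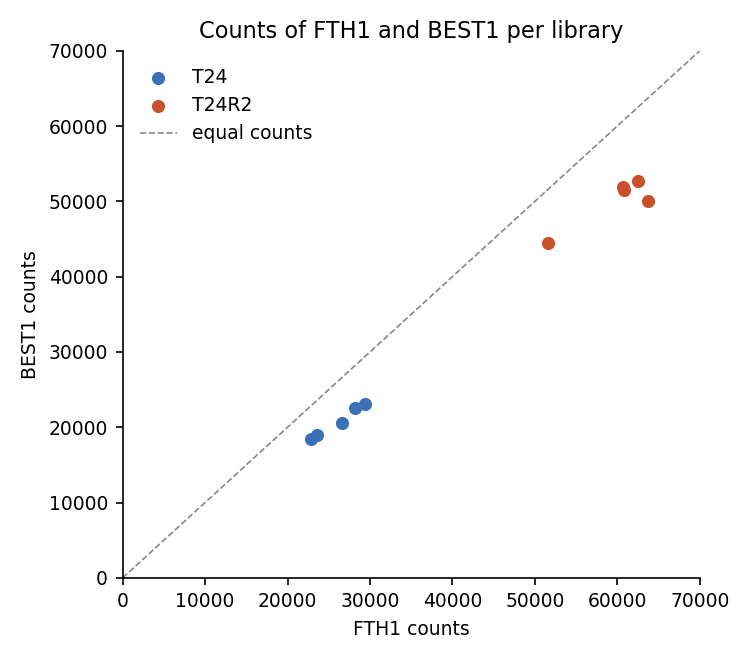
Counts of BEST1 against counts of FTH1 in the 10 libraries, T24 in blue and T24R2 in red, with a dashed line where both genes have equal counts. The 5 libraries of each line lie together just below the dashed line, with BEST1 at 0.773 to 0.806 of FTH1 in T24 and 0.785 to 0.863 in T24R2.

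Both ferritin genes have many processed copies in the genome, and reads of near-identical copies may be lost or split when only unique alignments are kept. The 25 annotated copies of FTH1, of which 16 had any count, took 0.377% to 0.620% of the summed counts of the gene and its copies in a library. The 16 copies of FTL, of which 4 had a count, took 0.179% to 0.337%. Adding these counts left the log2 fold changes of FTH1 and FTL at 0.97. The counts are too few to move a fold change, and reads lost for lack of a unique alignment are not among them.

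NCOA4 (ENSG00000266412.6, chr10:46005088-46030623, minus strand), the receptor that delivers ferritin for degradation, was 163, 168, 155, 158 and 163 CPM in T24 and 200.1, 206, 217, 213 and 217 CPM in T24R2. The libraries did not overlap, but the difference was small beside that of ferritin. The mean was 162 ± 4.90 and 210.4 ± 7.39 CPM (SD, n = 5), with a log2 fold change of 0.38 (SE 0.04, edgeR adjusted p = 6.08e-10), under the minimum of 0.5. Per length, NCOA4 stood at 0.0291 ± 0.00264 of FTH1 in T24 and 0.0192 ± 0.00155 in T24R2. The log2 ratio fell by 0.59, beyond the spread of the libraries (exact two-sided permutation test, p = 0.00794, n = 5 per line, adjusted p = 0.0106 over 4 ratios). With BEST1 counts taken off FTH1, the difference shrank to -0.23 (95% interval -0.64 to 0.19, exact permutation test, p = 0.254, n = 5 per line) and the lines overlapped, so this fall was not kept in that extreme setting. The p of 0.00794 is the smallest that 5 against 5 libraries can give, and each of the 9 genes reached the same value in that test on its CPM.

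TFRC (ENSG00000072274.13, chr3:196027183-196082096, minus strand), the transferrin receptor of the cell surface, was 267, 277, 279.7, 257 and 288 CPM in T24. In T24R2 it was 141, 154, 145, 159.6 and 153 CPM. Every T24R2 library was below every T24 library. The mean fell from 274 ± 12.0 to 150.5 ± 7.46 CPM (SD, n = 5), to 54.9% of the T24 mean, with a log2 fold change of -0.86 (SE 0.05, edgeR adjusted p = 9.16e-20). Only 78 of its exon bases (1.00%) lay opposite another gene, ENSG00000286168, which averaged 2.0 counts.

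The ratio of receptor to storage transcripts, taken within each library, therefore differed between the lines. Per length, TFRC was 0.0253 ± 0.00325 of FTH1 in T24 and 0.00704 ± 0.000706 in T24R2 (SD, n = 5). The log2 ratio fell by 1.84 (95% interval -2.09 to -1.59, exact two-sided permutation test, p = 0.00794, n = 5 per line, adjusted p = 0.0106 over 4 ratios), and the lines did not overlap. With BEST1 counts taken off FTH1 the difference was -1.47, still without overlap. A ratio within a library shows unequal change and does not depend on how libraries are scaled.

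**Figure D3:**
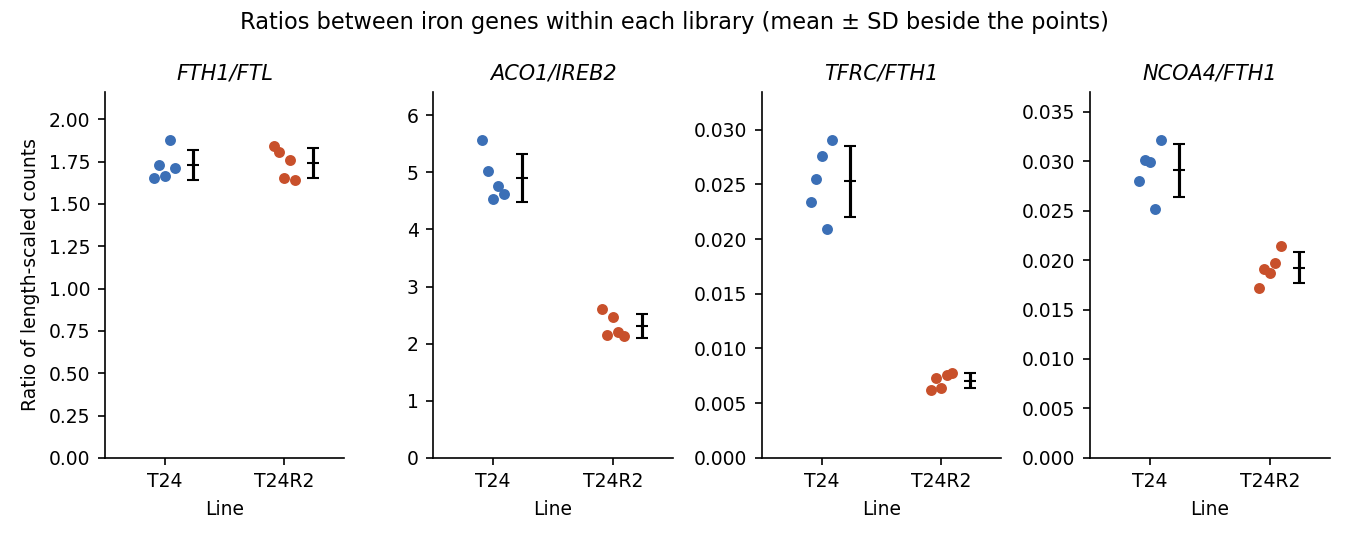
Ratio of length-scaled counts of 2 genes within each library, for T24 (blue) and T24R2 (red), with the mean and SD of 5 libraries beside the points. FTH1/FTL overlapped between the lines, at 1.73 and 1.74, while ACO1/IREB2, TFRC/FTH1 and NCOA4/FTH1 were lower in all T24R2 libraries (for NCOA4/FTH1 the lines overlapped with BEST1 counts taken off).

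SLC11A2 (ENSG00000110911.17, chr12:50979401-51028566, minus strand) encodes DMT1, the carrier that moves ferrous iron out of the endosome. It was 64.1, 57.0, 64.3, 57.4 and 64.0 CPM in T24 and 38.5, 43.3, 39.3, 40.3 and 43.4 CPM in T24R2. The ranges did not meet. The mean fell from 61.4 ± 3.81 to 41.0 ± 2.24 CPM (SD, n = 5), a log2 fold change of -0.58 (SE 0.06, edgeR adjusted p = 1.27e-10). With library size alone in place of TMM scaling it was -0.42 and not called.

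STEAP3 (ENSG00000115107.20, chr2:119223831-119265652, plus strand), the endosomal reductase that turns ferric into ferrous iron, went the other way. It was 7.06, 7.78, 10.7, 9.03 and 8.96 CPM in T24 and 27.2, 23.6, 25.4, 24.6 and 25.3 CPM in T24R2. The lowest T24R2 library was far above the highest T24 library. The mean rose from 8.72 ± 1.40 to 25.2 ± 1.31 CPM (SD, n = 5), with the largest log2 fold change of the 9 genes, 1.53 (SE 0.11, edgeR adjusted p = 5.71e-16). It rested on 68 to 94 counts a library in T24 and 257 to 296 in T24R2. STEAP3-AS1 lies opposite 500 of its 4562 exon bases, and with those counts added the log2 fold change was 1.56.

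The sensors differed from each other. ACO1 (ENSG00000122729.19, chr9:32384603-32454769, plus strand), which encodes the protein that is either the cytosolic aconitase or iron regulatory protein 1, was 245, 228, 236, 232 and 244 CPM in T24. In T24R2 it was 203, 196, 224, 207 and 205 CPM, so the lines were close without overlapping. Its mean was 237 ± 7.29 and 207 ± 10.5 CPM (SD, n = 5), with a log2 fold change of -0.20 (SE 0.04, edgeR adjusted p = 0.000163), under the minimum of 0.5. With library size alone in place of TMM scaling it was -0.03 (edgeR adjusted p = 0.487).

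IREB2 (ENSG00000136381.13, chr15:78437431-78501453, plus strand), which encodes iron regulatory protein 2, was 62.9, 64.9, 74.4, 69.7 and 75.3 CPM in T24. In T24R2 it was 111, 130.2, 129, 134 and 137 CPM, above T24 in every library. The mean rose from 69.4 ± 5.52 to 128 ± 9.97 CPM (SD, n = 5), a log2 fold change of 0.89 (SE 0.06, edgeR adjusted p = 6.93e-17). Per length, ACO1 was 4.90 ± 0.418 times IREB2 in T24 and 2.32 ± 0.211 times in T24R2. The log2 ratio fell by 1.08 (95% interval -1.26 to -0.90, exact two-sided permutation test, p = 0.00794, n = 5 per line, adjusted p = 0.0106 over 4 ratios). The iron regulatory proteins are controlled largely after transcription, and neither protein was measured here.

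FLVCR1 (ENSG00000162769.13, chr1:212858275-212899363, plus strand), a transporter of the cell surface known as a heme exporter, was the least abundant of the genes. It was 8.61, 8.0, 9.26, 6.45 and 8.32 CPM in T24 and 14.3, 17.9, 14.7, 14.0 and 15.0 CPM in T24R2. T24R2 was again higher in every library. The mean rose from 8.13 ± 1.04 to 15.2 ± 1.55 CPM (SD, n = 5), with a log2 fold change of 0.90 (SE 0.12, edgeR adjusted p = 2.58e-08), on 60 to 83 counts a library in T24 and 153 to 206 in T24R2.

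**Figure D4:**
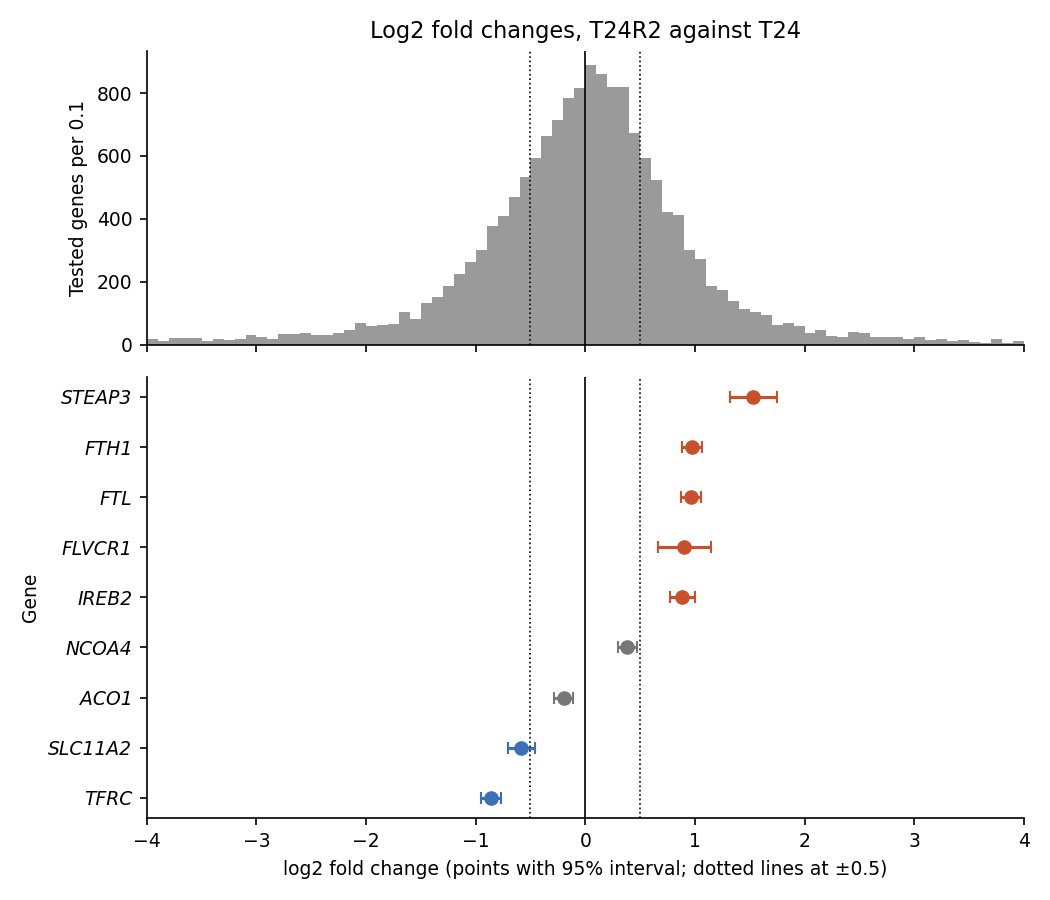
Log2 fold change of T24R2 against T24. Upper panel, number of tested genes per 0.1 (the 618 genes beyond the axis are not drawn). Lower panel, the 9 genes with 95% intervals, called higher in red, called lower in blue and not called in grey, and dotted lines at the minimum of 0.5. STEAP3 (1.53) and TFRC (-0.86) mark the ends, and NCOA4 and ACO1 lie between the dotted lines.

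Compared per length, the ferritin pair stood far above the other 7 genes in both lines. Fragments per exon base were 13.0 in T24 and 29.9 in T24R2 for FTH1, and 7.54 and 17.1 for FTL. They were 0.376 and 0.572 for NCOA4, the next gene. Counts were made after duplicate removal, and its effect at such unequal densities was not tested. In T24, the FPKM was 1402 ± 124 for FTH1 and 811 ± 54.0 for FTL. It was 40.5 ± 1.23 for NCOA4, 35.1 ± 1.54 for TFRC and 31.4 ± 0.965 for ACO1. It was 6.43 ± 0.511 for IREB2, 6.21 ± 0.385 for SLC11A2, 1.91 ± 0.308 for STEAP3 and 1.27 ± 0.163 for FLVCR1 (SD, n = 5). With BEST1 counts taken off and the full exon length of FTH1 kept, FTH1 would stand below FTL in both lines. That length includes the bases shared with BEST1, so the order of FTH1 and FTL in that setting is not settled. Neighbours in the order as counted did not overlap, except that the libraries of IREB2 and SLC11A2 did.

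In T24R2 the FPKM was 2753 ± 162 for FTH1, 1583 ± 102 for FTL and 52.8 ± 1.85 for NCOA4. TFRC, at 19.3 ± 0.957, stood below ACO1, at 27.4 ± 1.39, and the libraries of the pair did not overlap. IREB2 was at 11.9 ± 0.922, STEAP3 at 5.53 ± 0.288, SLC11A2 at 4.14 ± 0.226 and FLVCR1 at 2.36 ± 0.241 (SD, n = 5). The order thus changed at 2 places, TFRC with ACO1 and SLC11A2 with STEAP3, and no neighbours overlapped.

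The wider pathway was read from 10 lists that hold 97 genes with the 9 above. Of these, 82 were tested, 27 rose and 21 fell, so 58.5% were called beside 51.4% of all tested genes. The median log2 fold change was -0.05. Without the 9 genes, 22 of 73 tested genes rose and 19 fell, with a median of -0.06. With library size alone, 32 of the 82 rose and 18 fell.

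**Figure D5:**
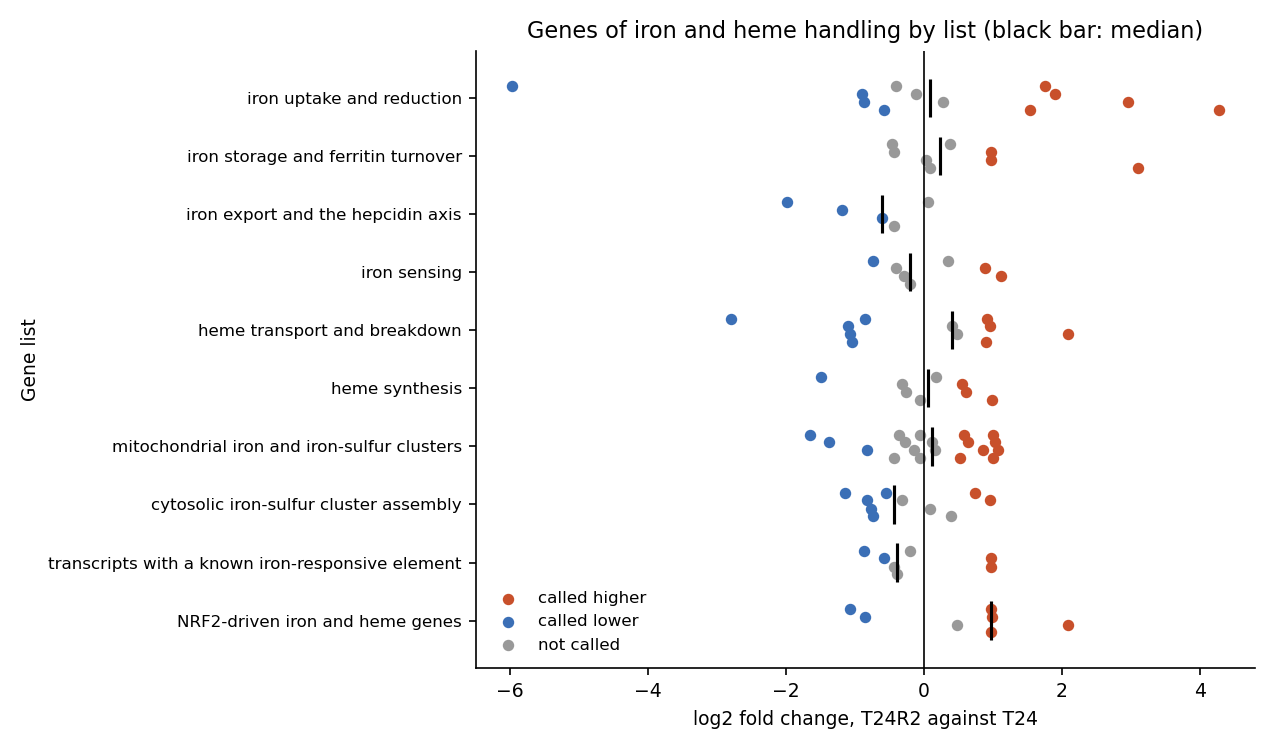
Log2 fold change of T24R2 against T24 (x axis) for each tested gene of the 10 lists, called higher in red, called lower in blue and not called in grey, with the list median as a black bar. Medians run from -0.61 for iron export to 0.97 for the NRF2-driven genes, and most lists hold calls in both directions. The point near -6 is LCN2, whose fitted value rests on T24R2 libraries with at most 1 count.

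Among 12 tested genes of uptake and reduction, 5 rose and 4 fell, with a median log2 fold change of 0.08. STEAP2, a metalloreductase of the STEAP3 family, rose from 0.622 ± 0.235 to 12.3 ± 1.61 CPM (SD, n = 5), a log2 fold change of 4.28. STEAP1 and the metal carrier SLC39A8 rose as well, by 2.96 and 1.90. TFRC and LRP1, a large endocytic receptor that takes up heme bound to hemopexin, fell, LRP1 from 209.5 ± 12.8 to 112 ± 4.17 CPM with a log2 fold change of -0.90. LCN2, which carries iron bound to siderophores, was at 11 to 20 counts in T24 and at most 1 in T24R2, at least 6.94-fold lower against a floor of 3 counts a library. With LCN2 anywhere below that bound the list median stays as given. STEAP4 had 0 counts in T24 and at most 5 in T24R2, and TF, the transferrin gene, had at most 3 and 7.

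Of 8 tested genes of storage and ferritin turnover, 3 rose, none fell past both thresholds, and the median was 0.24. The third riser beside FTH1 and FTL was PROM2, a membrane protein known for the export of ferritin in vesicles, which went from 0.645 ± 0.375 to 5.64 ± 0.894 CPM (SD, n = 5), a log2 fold change of 3.10 (SE 0.29, edgeR adjusted p = 1.65e-12). The ferritin chaperones PCBP1 and PCBP2 had log2 fold changes of 0.09 and -0.43 and were not called, and 73.2% and 18.8% of their exon bases lie opposite another gene.

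Iron export and the hepcidin axis had 5 tested genes, of which 3 fell and none rose, with a median of -0.61. These were CP, the ferroxidase ceruloplasmin, from 21.4 ± 2.97 to 5.42 ± 0.521 CPM (log2 fold change -1.98, with 20.1% of its exon bases opposite another gene), BMP6, a ligand that induces hepcidin in liver (-1.18), and NEO1, a coreceptor of that pathway (-0.61). The iron exporter ferroportin, SLC40A1, had 1 to 7 counts in T24 and 0 in T24R2, and TFR2 had at most 5 and 2. HAMP, the hepcidin gene itself, had 0 counts in all libraries.

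In the sensing list, 2 of 7 tested genes rose and 1 fell, with a median of -0.20. CUL1, a scaffold of the ligase that degrades iron regulatory protein 2, rose from 49.9 ± 3.82 to 109 ± 7.87 CPM (SD, n = 5), a log2 fold change of 1.12. FBXL5, the iron-binding subunit of that ligase, had a log2 fold change of -0.40 and was not called. CIAO3, which supplies iron-sulfur clusters to cytosolic proteins, fell by 0.73 on the log2 scale. Opposite-strand genes cover 11.1% of the exon bases of CUL1 and 21.5% of those of CIAO3.

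Heme transport and breakdown had 4 rising and 5 falling genes among 11, with a median of 0.40. HMOX1, the inducible heme oxygenase, which frees iron from heme, rose from 13.1 ± 1.43 to 55.5 ± 5.80 CPM (SD, n = 5), a log2 fold change of 2.08 (SE 0.09, edgeR adjusted p = 3.7e-23). BACH1, the heme-binding repressor of HMOX1 and of the ferritin genes, fell from 202 ± 7.09 to 98.3 ± 6.06 CPM, a log2 fold change of -1.04 (SE 0.05, edgeR adjusted p = 1.24e-21). The heme chaperone PGRMC1 rose by 0.92, while the constitutive oxygenase HMOX2 and the biliverdin reductase BLVRA had log2 fold changes of -1.10 and -1.07. ABCG2 had the largest log2 fold change of the list in either direction, -2.80 (SE 0.25, edgeR adjusted p = 3.96e-13). It fell from 6.22 ± 1.21 to 0.885 ± 0.157 CPM (SD, n = 5). FLVCR2 had at most 3 counts in T24 and 5 to 12 in T24R2.

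In heme synthesis, 3 of 8 tested genes rose and 1 fell, with a median of 0.06. FECH, which inserts iron into protoporphyrin, rose from 31.4 ± 2.98 to 62.1 ± 2.35 CPM (SD, n = 5), a log2 fold change of 0.98. UROD, which acts earlier in the pathway, rose by 0.61. ALAS1, the first and rate-limiting enzyme outside red cells, had a log2 fold change of -0.26 and was not called.

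Of 19 tested genes of mitochondrial iron and iron-sulfur cluster assembly, 8 rose and 3 fell, with a median of 0.12. HSPA9, a chaperone that helps transfer clusters, rose from 199 ± 9.97 to 396 ± 5.61 CPM (SD, n = 5), a log2 fold change of 1.00. The scaffold ISCU rose by 1.03. SLC25A28, the mitochondrial iron importer mitoferrin-2, and the ferredoxin reductase FDXR fell, with log2 fold changes of -1.38 and -1.65.

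Of 10 genes of cytosolic iron-sulfur assembly, 2 rose and 5 fell, with a median of -0.44. CIAO1 rose from 66.6 ± 4.35 to 129 ± 5.81 CPM (SD, n = 5), a log2 fold change of 0.96. Its partner in the targeting complex MMS19 (-0.83) and the glutaredoxin GLRX3 (-0.77) fell.

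Transcripts known to carry an iron-responsive element had 7 tested genes, of which FTH1 and FTL rose and TFRC and SLC11A2 fell, with a median of -0.40. EPAS1 and CDC14A had log2 fold changes of -0.44 and -0.40 and were not called. Among 7 tested iron and heme genes driven by NRF2, the transcription factor of the oxidative stress response, 4 rose (HMOX1, FTL, FTH1 and FECH), 2 fell (BLVRA and the heme transporter SLC48A1), and the median was 0.97. The lists share genes and were chosen with earlier results of these data known, so the counts describe these genes only. Leaving out the 14 genes with over 10% of their exon bases opposite another gene, a choice made after the data were seen, left 24 rising and 18 falling among 69 tested genes.

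The genes most like FTH1 in log2 CPM over the 10 libraries were BEST1, which shares its bases (Pearson r = 0.997), SLPI (0.994) and SARS1 (0.994). For FTL they were UBL7, GFPT2 and DCAKD, each at r = 0.997, and for TFRC they were CUL4A (0.998), RGS4 (0.998) and LDHA (0.997). The 10 libraries hold both lines, so these correlations include the difference between them, and r exceeded 0.99 for 20, 69 and 225 genes with FTH1, FTL and TFRC.

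Markers of other cell types were checked beside these results, since red cell precursors and macrophages handle much iron. Of 8 erythroid markers, 7 were at 3 counts or fewer in every library, globins included, and the summed level was 0.208 to 0.968 CPM in T24 and 0.0867 to 0.885 CPM in T24R2, with ALAS2 the most abundant. The 7 macrophage markers summed to 2.05 to 2.95 and 0.590 to 2.48 CPM, the most abundant being CD14 in T24 (1.12 CPM on average) and SLC11A1 in T24R2 (0.566 CPM), with CD163, MRC1 and C1QA at the floor in both lines. Leukocyte markers (4 genes, CD3E at the floor) summed to at most 0.686 and 1.39 CPM, the most abundant being NKG7 in T24 (0.392 CPM on average) and PTPRC in T24R2 (0.475 CPM, against 0.0439 CPM in T24).

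The line labels were set beside 14 urothelial and epithelial markers. Of the 8 tested, all fell in T24R2, and their sum over the 14 was 4943 to 5676 CPM in T24 and 3013 to 3217 CPM in T24R2. Keratins 7, 8 and 18 were abundant in both lines, KRT7 at 2242 and 1370 CPM on average, while UPK1B, UPK3A and CDH1 were at the floor in both. KRT19 averaged 267 CPM in T24 and had at most 3 counts in T24R2, and GATA3 went from 22.1 to 0.214 CPM. The 4 endothelial markers summed to 225 to 278 CPM in T24, almost all of it CDH5, and to 1.60 to 2.50 CPM in T24R2, with KDR at the floor. The 6 fibroblast markers summed to 8.86 to 11.2 and 0.445 to 1.84 CPM, COL1A1 being the most abundant and COL1A2, COL3A1, DCN and LUM at the floor. These lists moved with the line, and their part in the differences of the iron genes was not tested.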

How the data were processed

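RNA-seq of T24 and T24R2 (5 libraries each, day 3) was analysed, and the other assays of the study were not analysed here. The authors aligned reads to hg38 with STAR 2.7.0, retained unique alignments after duplicate removal (samtools 1.10), and counted fragments on GENCODE 39 genes with featureCounts 2.0.1 at strand option 1. The deposited values are raw counts, neither normalized nor pooled. Of 61533 genes, 61369 had a symbol in the gene name table, 33622 had a count, and 0 rows lacked an identifier. Unique alignment can lower counts of genes with near-identical copies, and reads of overlapping genes may be credited to either gene.

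For the comparison of the lines, the counts were fitted with edgeR 4.0.16 under R 4.3.3 (filterByExpr, leaving 16181 genes, TMM, glmQLFit, glmQLFTest, Benjamini-Hochberg adjustment over all of them). A gene was called where the adjusted p was under 0.05 and the log2 fold change beyond 0.5 in either direction. CPM used TMM-scaled library sizes, and FPKM also divided by the exon bases of the gene. Exact two-sided permutation tests compared CPM and within-library log2 ratios. The floor of 3 counts covers counting error only. Every one of the 20 pairs of libraries within a line differed by more than counting error (chi-square divided by its degrees of freedom, 2.01 to 7.04), so none was merged with another as the same library. This does not show that they came from separate cultures. Hairpins were searched in the UTRs of one selected transcript a gene in GENCODE annotation of GRCh38. Its gene extents equalled those of the deposited tables for every listed gene but TFRC.

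The members and lists were chosen with earlier results of these data known. Named genes are the 9 members, genes opposite their exons, ferritin pseudogenes in sum, up to 3 called genes of each list with the smallest adjusted p, list genes at the floor in 1 line, and the 3 genes most correlated with FTH1, FTL and TFRC. Other list genes named (STEAP1, SLC39A8, PCBP1, PCBP2, HAMP, FBXL5, HMOX2, BLVRA, ABCG2, ALAS1, ISCU, EPAS1, CDC14A and SLC48A1) were chosen after their values were seen. Values of a few list genes are not reported here.

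Alternatives were library size alone, upper-quartile scaling, other count filters, DESeq2 1.42.0 without and with normal shrinkage, limma-voom (limma 3.58.1), a replicate block, no mitochondrial genes, other fold minimums, opposite-strand or pseudogene counts added or taken off, and each library left out. BEST1 counts added to or taken off FTH1 in the ratios, and the removal of overlapped list genes, were added after the data were seen. In a test on simulated counts with 200 of 16181 genes changed, edgeR called 192 of them and 3 unchanged genes. DESeq2 and limma-voom each called 190, and DESeq2 with shrinkage 124. Far fewer genes were changed there than the 51.4% called in the data, so these rates do not carry over to the data. In the data, DESeq2 called 8247 genes without shrinkage and 8212 with it. Other steps used Python 3.11.15, numpy 2.4.6, pandas 2.3.3, SciPy 1.17.1 and matplotlib 3.10.9.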

Additional observations from a re-analysis of the deposited data

Results flagged for a closer look

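IREB2 in T24R2 replicate 1 was 111.297 CPM and the other 4 T24R2 libraries were 129 to 137 CPM, a gap that is a large share of the range of the group. This library was still above all T24 libraries. FLVCR1 in T24R2 replicate 2 was 17.8581 CPM and the others were 14.0 to 15.0 CPM. Of 26 comparisons of the most extreme library with its group, over the 9 genes and 4 ratios in both lines, these 2 stood apart, and chance gives about 1 in 20. Without any one library, the log2 fold change stayed between 0.85 and 0.94 for IREB2 and between 0.82 and 0.95 for FLVCR1.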

How the results depend on the processing

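With library size alone the median log2 fold change of all tested genes moved from 0.01 to 0.18, and 5206 genes were called higher and 3431 lower, against 4027 and 4282. NCOA4 was then called at 0.54 and SLC11A2 not called at -0.42, leaving 1 member called lower, although relative to the median both were nearly as before (0.37 in each setting for NCOA4, -0.60 in each for SLC11A2). ACO1 was at -0.03 with library size alone (edgeR adjusted p = 0.487) and -0.21 relative to the median in both settings. A fold minimum of 1 left 1 member higher and 0 lower, and 10 wider iron genes higher and 11 lower. With no minimum, 33 wider genes were higher and 36 lower, and with library size alone 32 and 18. With BEST1 counts taken off FTH1, a setting added after the data were seen, the log2 ratio of FTH1 to FTL turned to -0.36 and that of NCOA4 to FTH1 was -0.23 (exact permutation p = 0.0635 and 0.254, n = 5 per line). Leaving out each library gave 5 members higher and 2 lower each time, 26 to 28 wider genes higher and 20 to 22 lower. It gave differences of the log2 ratio of -0.0108 to 0.0408 for FTH1 to FTL, whose sign is not settled, -1.13 to -1.04 for ACO1 to IREB2, -1.91 to -1.79 for TFRC to FTH1 and -0.65 to -0.56 for NCOA4 to FTH1. Replicate numbers did not pair the libraries (correlations of same-numbered deviations from -0.020 to 0.021). With a replicate block, 8240 genes were called and 5 members rose and 2 fell, as without it. The ratios were -1.08, -1.84 and -0.59 in the paired exact sign-flip test at p = 0.0625, the smallest that 5 pairs allow. The other alternatives of scaling, filter, tool and left-out library kept each member's direction and call. Depth limits STEAP3 and FLVCR1 in T24 and the genes near the floor, and protein, iron content and translation were not measured.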
